A study of Mus musculus with 8 samples.

Results

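Transcripts of 39 genes for transcription factors of the liver, most of them nuclear receptors, were followed in mouse livers in which a short hairpin RNA, shThbs2, was directed against Thbs2, the gene of the secreted matrix protein thrombospondin 2. The members were taken by gene symbol, and all 39 were found among the 24662 features of one table and the 27261 features of the other. The study had 8 liver libraries in 2 arms. In each arm 2 libraries from mice given an adeno-associated virus of serotype 6 with the shThbs2 construct were compared with 2 libraries from mice given the control construct, which the labels call NC. The constructs of the first arm are named CMV, after a viral promoter active in most cell types, and those of the second αSMA, after smooth muscle actin, which is expressed by activated hepatic stellate cells and by smooth muscle. All 4 groups therefore carried a virus, and no group without one was analysed here. Strain, age, time after injection and any injury to the liver are not stated in the labels. The CMV libraries were sequenced on a HiSeq2500 and the αSMA libraries on a DNBSEQ-T7 by another company, so the arms differ in vector, platform and company together, and these cannot be told apart. Replicates are numbered 1 and 2 in the CMV arm and 3 and 4 in the αSMA arm.

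Nuclear receptors are transcription factors that bind DNA through zinc fingers and, for many of them, change their activity when a small lipophilic molecule such as a steroid, thyroid hormone, a retinoid, an oxysterol or a drug binds. Several of them work in hepatocytes as partners of the retinoid X receptors, and together with HNF4A, the C/EBP factors, the FOXA factors and ONECUT1 they maintain the hepatocyte programme of bile acid, lipid, glucose and drug metabolism. Their activity is also set by ligands, cofactors and protein turnover, none of which a transcript level measures.

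Levels are FPKM, the fragments of a gene divided by its transcript length in kilobases and scaled to the number mapped in its library, which allows genes to be compared per length within a table. The FPKM sum of a library lay between 491931 and 514641 in the CMV arm. The αSMA controls had sums of 941530 and 924060, and the αSMA knockdown libraries of 1253740 and 1225210. The share of that sum on mitochondrial genes was 13.3% to 15.8% in the CMV arm, and in the αSMA arm 12.1% to 12.2% in the controls against 23.1% to 24.6% in the knockdown libraries. Thbs2 itself was at 1.27 and 0.922 FPKM in the CMV controls and at 0.695 and 0.614 FPKM with shThbs2, below the level required for testing. Thbs2 in the αSMA arm was at 1.37 and 1.47 FPKM in the controls and at 0.850 and 1.14 FPKM with shThbs2, a log2 change of -0.28 that was not called (adjusted p = 0.269). Albumin lay between 20493 and 50033 FPKM in all 8 libraries, the highest level of the 10 hepatocyte markers. Whether fewer cells of a type or less RNA per cell lies behind a lower value cannot be told apart in such bulk samples.

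The members spanned a wide range of levels in the controls. In the CMV controls the highest were Cebpa at 131 ± 21.7 FPKM and Hnf4a at 117 ± 6.79 FPKM (SD, n = 2), which did not differ beyond their spread. Cebpb followed at 68.7 ± 6.70 FPKM, Rxra at 53.2 ± 1.90 FPKM and Nr1h3 at 50.2 FPKM, with 51.3 and 49.2 FPKM in its libraries. In the αSMA controls the order began with Hnf4a at 75.7 ± 10.8 FPKM, then Nfe2l2 at 59.1 ± 0.877 FPKM and Cebpb at 57.9 ± 1.33 FPKM, with Nfe2l2 and Cebpb within their spread of each other. Rarb, Hnf4g and Nr2f1 were the lowest in both tables, at 0.752, 0.0804 and 0.258 FPKM in the CMV controls and 0.840, 0.145 and 0.405 FPKM in the αSMA controls. These 3 were below the mean of 1 FPKM required for testing in both arms and Nr3c2 in the CMV arm, which left 35 tested members in the CMV arm and 36 in the αSMA arm.

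The sequence upstream of the start site is shown for 4 members. Nr1i3, Foxa3 and Nfe2l2 were called in the αSMA arm, and Cebpb had the smallest p of any member in the CMV arm. Other members called in the αSMA arm, Nr2c2 among them, are not shown. Each line holds the 250 bases before the RefSeq start on GRCm38.p6, read 5′ to 3′ on the gene's strand, and the capitals mark the motif found by a search of both strands. For Nr1i3 (chr1:171213720-171213969, plus strand) this is an E-box, CACGTG, starting 244 bases before the start. For Foxa3 (chr7:19023540-19023789, minus strand) it is a TATA box, TATAAA, at 36 bases before the start. For Nfe2l2 (chr2:75704664-75704913, minus strand) it is the core of the antioxidant response element, TGACNNNGC, at 240 bases before the start. For Cebpb (chr2:167688665-167688914, plus strand) it is the half-site of the cyclic AMP response element, TGACG or its complement, at 180, 53 and 7 bases before the start.
Nr1i3: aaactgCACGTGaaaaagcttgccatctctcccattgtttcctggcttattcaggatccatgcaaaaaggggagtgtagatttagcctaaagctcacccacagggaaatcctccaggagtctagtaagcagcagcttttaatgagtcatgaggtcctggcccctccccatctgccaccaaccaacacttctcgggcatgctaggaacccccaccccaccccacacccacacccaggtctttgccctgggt
Foxa3: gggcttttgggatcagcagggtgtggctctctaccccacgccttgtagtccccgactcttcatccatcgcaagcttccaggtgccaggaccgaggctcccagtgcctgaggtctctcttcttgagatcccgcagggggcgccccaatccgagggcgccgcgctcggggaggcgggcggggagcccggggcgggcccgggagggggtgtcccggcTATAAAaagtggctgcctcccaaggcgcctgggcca
Nfe2l2: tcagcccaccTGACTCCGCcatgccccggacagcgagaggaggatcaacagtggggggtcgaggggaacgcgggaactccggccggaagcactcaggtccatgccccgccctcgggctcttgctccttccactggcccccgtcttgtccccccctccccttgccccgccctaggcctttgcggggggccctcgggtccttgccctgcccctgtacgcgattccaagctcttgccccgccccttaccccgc
Cebpb: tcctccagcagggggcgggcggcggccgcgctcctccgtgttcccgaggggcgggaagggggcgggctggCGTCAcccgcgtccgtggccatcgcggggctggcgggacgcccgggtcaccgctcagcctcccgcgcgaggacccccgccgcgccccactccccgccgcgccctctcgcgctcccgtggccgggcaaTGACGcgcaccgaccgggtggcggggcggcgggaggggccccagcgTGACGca

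RefSeq promoters were matched for 34 of the 39 members, in 53 entries. Nr3c1, Onecut2, Hnf4g, Thra and Cebpd were not matched. The nuclear receptor half-site AGGTCA was in 8 of the 53 entries, or 15.1%, against 14.0% of all 32851 promoters of the same length. The C/EBP motif TTGCNNAA was in 8 entries, or 15.1%, against 9.56%, and the FOXA motif TGTTTAC in 3, those of Foxa1, Nr2f1 and Rxrb, or 5.66%, against 3.17%. TGACNNNGC was in 5 entries, or 9.43%, against 10.2%, and CACGTG in 4, or 7.55%, against 6.02%. TGACG was in 9 entries, or 17.0%, against 17.8%, and TATAAA in 7, or 13.2%, against 12.4%. Some members have several entries, so these are not independent. TGACG and TGACNNNGC can overlap, because both begin with the same 4 letters.

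In the αSMA arm 10 of the 36 tested members passed the test, limma on log2(FPKM + 1) with a Benjamini-Hochberg adjusted p under 0.05 over all tested features. The constitutive androstane receptor Nr1i3, the master regulator of antioxidant genes Nfe2l2 and the oestrogen receptor Esr1 rose. Foxa3, Nr2c2, Nr3c1, Nr3c2, Onecut1, Esrra and Rxra fell. This share of 27.8% stood beside 36.1% of all 13012 tested features, of which 13.3% were called higher and 22.8% lower. The groups did not overlap for 26 of the 36 members, 7 higher and 19 lower, or 72.2%, beside 74.9% of all features (28.7% higher and 46.2% lower). An unadjusted p under 0.05 was reached by 13 members, and by 49.9% of all features. The median log2 change was -0.22 over the members and -0.16 over all tested features, so the members as a group lay near the background of a library set in which much of the transcriptome was called.

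The calls did not hold with 1 control library. Without control replicate 3 or control replicate 4 none of the members was called, and the call count over all features fell from 4691 to 53 and 46. Without knockdown replicate 3 only Nr1i3 was called, with 1111 features in all, and without knockdown replicate 4 there were 7 members and 4137 features. The directions of the 10 called members could not change in these fits, because their groups did not overlap. A fold change on the log2(FPKM + 1) scale understates the change of genes near 1 FPKM, such as Nr2c2 and Nr3c2.

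In the CMV arm no member was called by limma, and 6 had an unadjusted p under 0.05. Over all 10916 tested features 2 were called, which is 0.0183%, both of them higher (0.0183%) with 0% lower, and 10.2% had an unadjusted p under 0.05. The groups did not overlap for 17 of the 35 members, 6 higher and 11 lower, or 48.6%, beside 42% of all features (24.5% higher and 17.5% lower). The median log2 change was -0.04 over the members and 0.03 over all features. Leaving out control replicate 1 or control replicate 2 brought 1 member, Cebpb, past the threshold, while the calls over all features rose from 2 to 152 and 131.

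**Figure D1:**
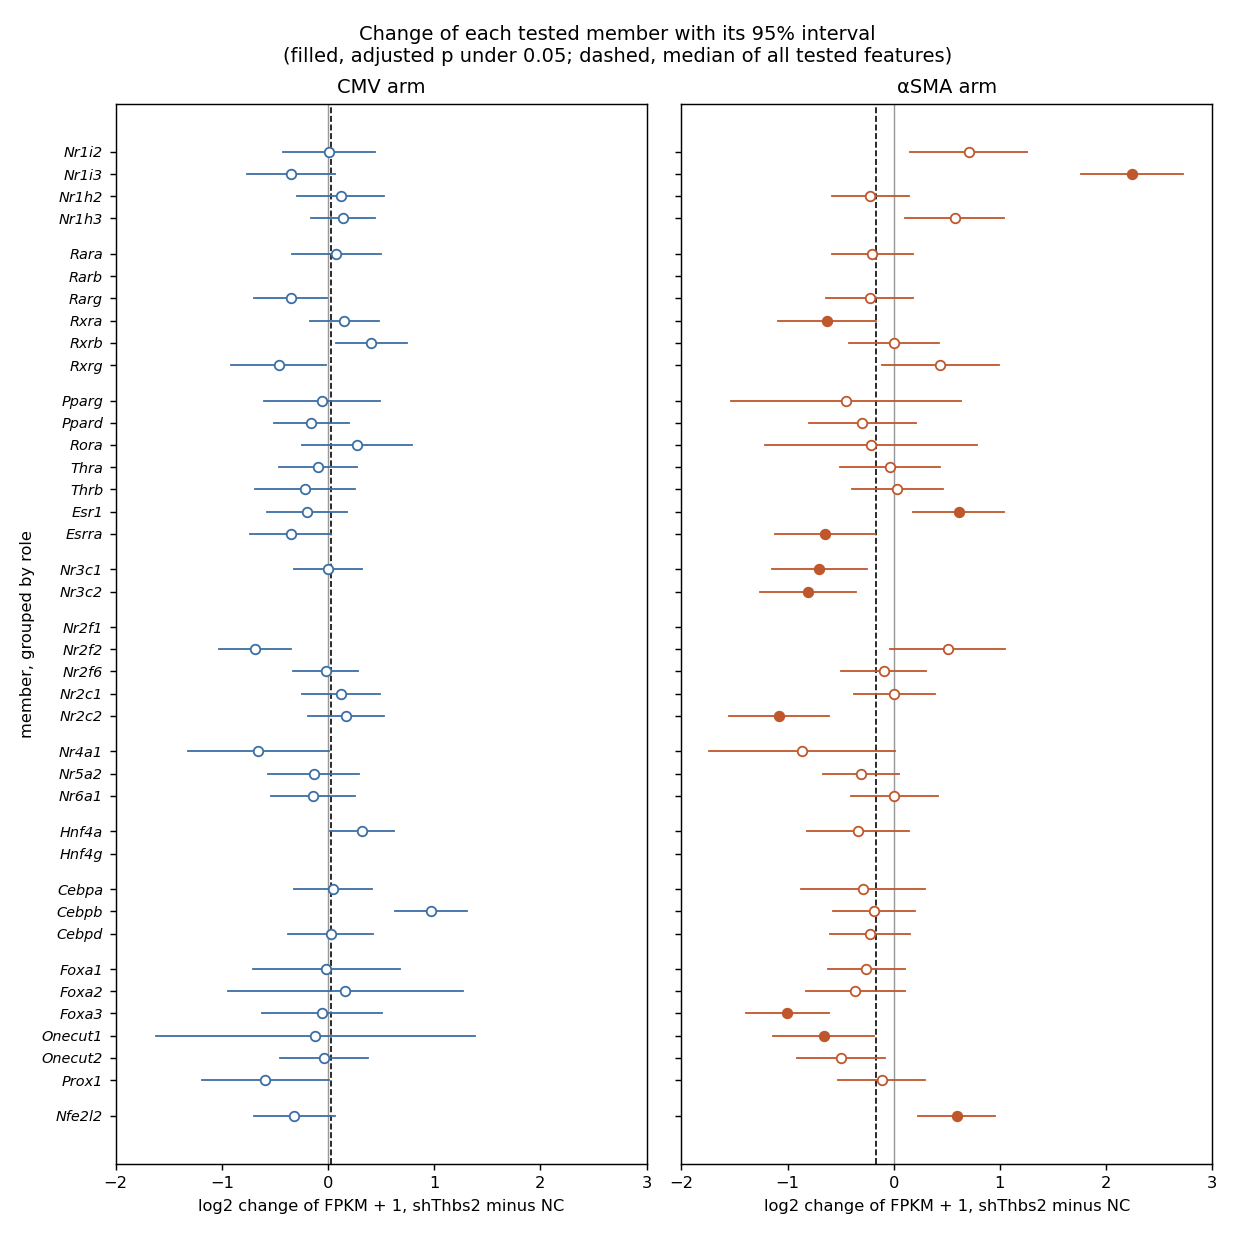
Log2 change of FPKM + 1 (shThbs2 minus NC) of each tested member with its 95% interval, grouped by role, in the CMV arm (left, 35 members) and the αSMA arm (right, 36 members). Filled points passed an adjusted p of 0.05, and the dashed line is the median of all tested features; 10 points are filled in the αSMA arm and none in the CMV arm.

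Among the receptors for xenobiotics and oxysterols, Nr1i3 changed most. It encodes the constitutive androstane receptor CAR, which induces drug-metabolising enzymes in hepatocytes. In the αSMA arm it was at 9.30 and 7.29 FPKM in the controls and at 47.5 and 38.6 FPKM with shThbs2. Both knockdown libraries thus lay far above both controls, by 5.19-fold on average. The log2 change was 2.25 ± 0.19 (SE, limma adjusted p = 0.00563). Nr1i3 in the CMV arm was at 34.9 and 43.6 FPKM in the controls and at 27.5 and 33.5 FPKM with shThbs2, a log2 change of -0.35 that was not called (adjusted p = 0.553). The groups did not overlap there either, but in the opposite order. The αSMA controls were the only group with Nr1i3 under 10 FPKM, although levels were not tested across the tables. Exons of Nr1i3 share 3304 bases with Tomm40l on the opposite strand, and the CMV library kit does not record the strand, while for the αSMA libraries the strand setting is unknown. Tomm40l moved the other way in the αSMA arm, from 11.9 and 14.7 FPKM to 7.28 and 10.4 FPKM, and was not called (adjusted p = 0.0950).

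Nr1i2, the pregnane X receptor PXR, which senses drugs and bile acids and shares targets with CAR, was at 7.99 and 9.07 FPKM in the αSMA controls and at 17.6 and 11.9 FPKM with shThbs2. Its groups were apart and its log2 change of 0.71 missed the threshold (adjusted p = 0.0550). Nr1h3, the oxysterol receptor LXR alpha, was at 34.7 and 26.6 FPKM in the αSMA controls and at 47.8 and 43.8 FPKM with shThbs2, again with groups apart and without a call (log2 change 0.57, adjusted p = 0.0611). Its ubiquitous relative Nr1h2, LXR beta, went from a mean of 22.3 to 19.0 FPKM and was not called. None of these 3 moved in the CMV arm by more than 0.14 on the log2 scale, and Nr1i2 had the same mean level of 19.5 FPKM in both groups.

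**Figure D2:**
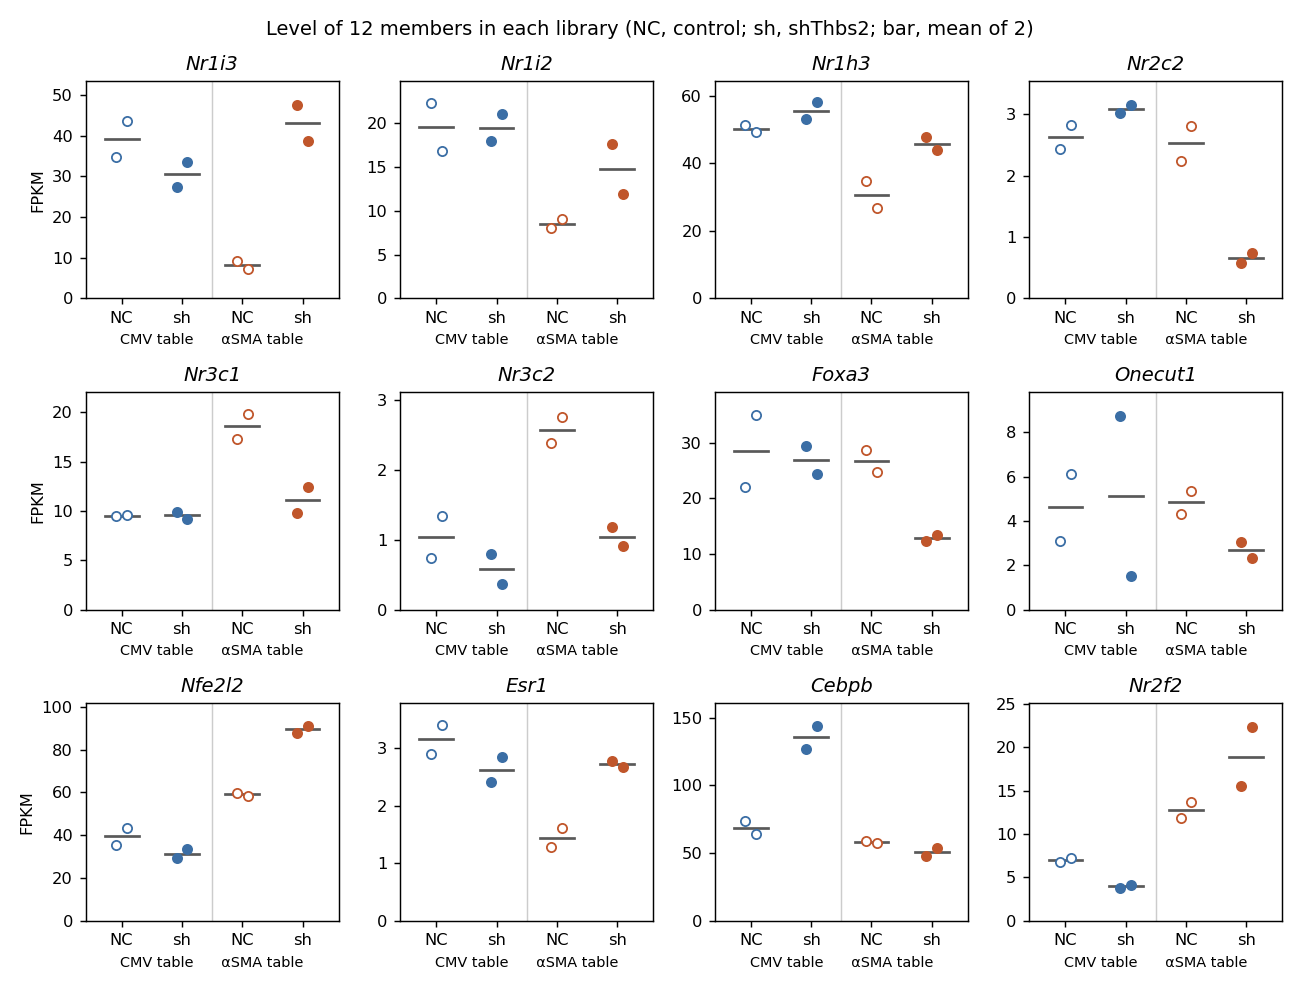
FPKM of 12 members in each of the 8 libraries, with open points for NC, filled points for shThbs2 and a bar for the mean of each group of 2; the y axes start at 0 and the tables were normalised separately. Nr1i3 lay at 7.29 to 9.30 FPKM in the αSMA controls and at 38.6 to 47.5 FPKM in the αSMA knockdown libraries, while Cebpb lay at 63.9 to 73.4 FPKM in the CMV controls and at 127 to 144 FPKM in the CMV knockdown libraries.

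The retinoid receptors bind derivatives of vitamin A, which the liver keeps in stellate cells. Rxra, the retinoid X receptor that pairs with CAR, PXR, LXR and the PPARs and is the main form in hepatocytes, fell in the αSMA arm. It was at 39.0 and 50.0 FPKM in the controls and at 29.8 and 26.7 FPKM with shThbs2 (log2 change -0.63 ± 0.18, adjusted p = 0.0478). The groups were apart, and the value lay just inside the threshold. Rxra in the CMV arm was at 51.8 and 54.5 FPKM in the controls and at 55.3 and 63.5 FPKM with shThbs2 (log2 change 0.15, adjusted p = 0.730).

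The other RXR genes were not called in either arm. Rxrg, the form with the most restricted expression, was at 2.88 and 2.46 FPKM in the CMV controls and at 2.01 and 1.34 FPKM with shThbs2 (log2 change -0.47, adjusted p = 0.469). Its αSMA order was opposite, with 1.61 and 1.03 FPKM in the controls and at 2.46 and 1.82 FPKM with shThbs2 (log2 change 0.44, adjusted p = 0.163). Rxrb was higher in both CMV knockdown libraries, at 12.9 and 13.4 FPKM against 9.07 and 10.2 FPKM in the controls (log2 change 0.41, adjusted p = 0.426), and its αSMA groups overlapped.

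Among the retinoic acid receptors, Rarg was lower in both knockdown libraries of each arm. It was at 3.74 and 4.04 FPKM in the CMV controls against 2.77 and 2.89 FPKM, and at 3.12 and 3.58 FPKM in the αSMA controls against 2.89 and 2.54 FPKM, and was called in neither arm. Rarb, a target of retinoic acid signalling as well as a receptor, was under 1 FPKM throughout and not tested. Its levels were 0.584 and 0.920 FPKM in the CMV controls against 0.303 and 0.467 FPKM, and 0.840 in both αSMA controls against 0.580 and 0.470 FPKM. It shares 1793 exonic bases with Top2b, a gene on the opposite strand with a higher level. Rara moved by 0.08 in the CMV arm and -0.20 in the αSMA arm on the log2 scale, without a call.

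Of the receptors for fatty acids, thyroid hormone and oestrogen, Esr1 and Esrra were called in the αSMA arm. Esr1, the oestrogen receptor alpha of hepatocytes, was at 1.28 and 1.61 FPKM in the controls and at 2.77 and 2.68 FPKM with shThbs2, 1.89-fold higher (log2 change 0.61 ± 0.17, adjusted p = 0.0427). Its groups did not overlap. The CMV order was opposite, at 2.91 and 3.40 FPKM in the controls and at 2.40 and 2.85 FPKM with shThbs2 (log2 change -0.20, adjusted p = 0.708).

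Esrra, an orphan receptor that drives genes of mitochondrial respiration, was at 11.0 and 14.7 FPKM in the αSMA controls and at 8.25 and 7.27 FPKM with shThbs2 (log2 change -0.65 ± 0.19, adjusted p = 0.0460). In the CMV arm it was at 13.0 and 14.3 FPKM in the controls and at 9.36 and 11.7 FPKM with shThbs2 (log2 change -0.35, adjusted p = 0.523). Both knockdown libraries were thus below both controls in each arm. The mitochondrial share of the FPKM sum was higher in the αSMA knockdown libraries, as given above, and its part in this result was not tested.

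Pparg, the lipid storage receptor, Rora, a receptor of the circadian and lipid programme, and Ppard were not called. Pparg and Rora were the members whose αSMA libraries of 1 group disagreed most. Pparg was at 10.6 and 5.59 FPKM in the controls and at 3.47 and 8.20 FPKM with shThbs2, and Rora at 11.95 and 14.1 FPKM in the controls and at 6.99 and 17.2 FPKM with shThbs2. Knockdown replicate 3 was the lowest library of the arm for both genes. The thyroid hormone receptors Thra and Thrb stayed within 0.22 of 0 on the log2 scale in both arms, with overlapping groups. Thra shares 263 exonic bases with Nr1d1 on the opposite strand, which was called higher in the αSMA arm (log2 change 1.082, adjusted p = 0.0363).

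Both steroid receptors of the NR3C group fell in the αSMA arm. Nr3c1, the glucocorticoid receptor, was at 17.3 and 19.9 FPKM in the controls and at 9.79 and 12.4 FPKM with shThbs2 (log2 change -0.70 ± 0.18, adjusted p = 0.0349). Nr3c2, the mineralocorticoid receptor, was at 2.39 and 2.76 FPKM in the controls and at 1.18 and 0.910 FPKM with shThbs2, 2.46-fold lower (log2 change -0.81 ± 0.18, adjusted p = 0.0250). All 4 knockdown values lay below all controls of their gene. Nr3c1 in the CMV arm had almost the same level in all 4 libraries, 9.48 and 9.56 FPKM in the controls and at 9.93 and 9.16 FPKM with shThbs2 (log2 change 0.00, 95% interval -0.32 to 0.32). Nr3c2 was near 1 FPKM there and not tested, at 0.734 and 1.35 FPKM in the controls and at 0.796 and 0.364 FPKM with shThbs2.

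Nr2c2, the testicular receptor TR4, an orphan receptor that can compete with other receptors for shared DNA sites, fell in the αSMA arm by most among the members on the log2 scale. It was at 2.24 and 2.81 FPKM in the controls and at 0.580 and 0.740 FPKM with shThbs2, 3.83-fold lower (log2 change -1.08 ± 0.19, adjusted p = 0.0148). Its groups were well apart at this low level, whereas in the CMV arm the 4 libraries lay between 2.43 and 3.15 FPKM with the knockdown libraries slightly higher (log2 change 0.17, adjusted p = 0.730). Nr2c2 shares 4590 exonic bases with Mrps25 on the opposite strand, which was at 16.9 and 11.1 FPKM in the αSMA controls and 18.2 and 19.7 FPKM with shThbs2 and was not called (adjusted p = 0.173). Its close relative Nr2c1, TR2, was at a mean of 4.25 FPKM in the αSMA controls and 4.27 FPKM with shThbs2 (log2 change 0.01, 95% interval -0.38 to 0.39).

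Nr2f2, COUP-TFII, is expressed in the venous endothelium and in stellate cells as well as in hepatocytes. It had the second smallest p of the members in the CMV arm, with 6.72 and 7.24 FPKM in the controls and at 3.75 and 4.15 FPKM with shThbs2 (log2 change -0.69 ± 0.14, adjusted p = 0.268). The groups were apart and the gene was not called. In the αSMA arm it was at 11.9 and 13.8 FPKM in the controls and at 15.5 and 22.3 FPKM with shThbs2, higher in both knockdown libraries and not called (log2 change 0.51, adjusted p = 0.115). The markers of stellate cells and myofibroblasts summed to 173 to 179 FPKM in the CMV controls and 144 to 154 FPKM in the CMV knockdown libraries. Their αSMA sums were 387 to 448 FPKM and 375 to 512 FPKM. Endothelial markers summed to 81.6 to 95.7 FPKM against 80.8 to 82.3 FPKM in the CMV arm and to 139 to 195 FPKM against 142 to 155 FPKM in the αSMA arm. The part of these cell types in the Nr2f2 values was not tested. Nr2f6 kept overlapping groups in both arms, sharing 1622 exonic bases with Ocel1 on the opposite strand, and Nr2f1 stayed at or below 0.42 FPKM in every library.

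Of the orphan receptors, Nr4a1, an immediate early gene, was lower in all knockdown libraries of both arms. It was at 2.74 and 1.27 FPKM in the CMV controls against 1.09 and 0.641 FPKM (log2 change -0.66, adjusted p = 0.496). The αSMA levels were 7.85 and 4.08 FPKM in the controls against 1.94 and 3.61 FPKM (log2 change -0.86, adjusted p = 0.104). The controls of each arm differed from one another by about as much as the groups, and neither change was called. Nr5a2, LRH-1, a regulator of bile acid synthesis, went from 14.4 and 13.4 FPKM to 11.1 and 10.9 FPKM in the αSMA arm (adjusted p = 0.136), and its CMV groups overlapped. Nr6a1 changed by -0.14 in the CMV arm and 0.00 in the αSMA arm on the log2 scale.

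Hnf4a, the nuclear receptor at the centre of the hepatocyte programme, was among the CMV members with an unadjusted p under 0.05. It was at 112 and 122 FPKM in the CMV controls and at 139 and 153 FPKM with shThbs2, with groups apart and no call (log2 change 0.32 ± 0.12, adjusted p = 0.469). The αSMA order was opposite, at 68.0 and 83.4 FPKM in the controls and at 65.9 and 53.7 FPKM with shThbs2 (log2 change -0.34, adjusted p = 0.214). Its paralogue Hnf4g stayed at or below 0.205 FPKM in every library.

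Cebpb, the C/EBP factor of the acute phase and of regeneration, had the smallest p of the CMV members. It was at 73.4 and 63.9 FPKM in the controls and at 127 and 144 FPKM with shThbs2, 1.97-fold higher (log2 change 0.97 ± 0.14, adjusted p = 0.137). The groups were far apart, and the adjusted p lay above the threshold in the fit with all 4 libraries (0.0176 to 0.522 over the alternatives). Cebpb in the αSMA arm was at 58.9 and 57 FPKM in the controls and at 47.9 and 54.0 FPKM with shThbs2 (log2 change -0.18, adjusted p = 0.371). The 312 exonic bases that it shares with Tmem189 on the opposite strand belong to a gene at 3.26 to 3.34 FPKM in all 4 CMV libraries. Cebpa, which keeps hepatocytes differentiated, and Cebpd were not called, with log2 changes of 0.05 and 0.02 in the CMV arm and -0.29 and -0.23 in the αSMA arm. Cebpd shares exonic bases with Spidr on the opposite strand, which was called lower in the αSMA arm (log2 change -0.60, adjusted p = 0.0483).

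All 6 FOXA, ONECUT and PROX1 genes had estimates below 0 in the αSMA arm, as did 25 of all 36 tested members. Of the 6 genes 2 were called. Foxa3, a pioneer factor that opens chromatin at liver genes, was at 28.7 and 24.8 FPKM in the controls and at 12.3 and 13.4 FPKM with shThbs2, 2.08-fold lower (log2 change -1.002 ± 0.155, adjusted p = 0.0124). Onecut1, HNF6, which acts in both bile duct and hepatocyte development, was at 4.30 and 5.37 FPKM in the controls and at 3.07 and 2.33 FPKM with shThbs2 (log2 change -0.66 ± 0.19, adjusted p = 0.0459). For both genes the groups were apart. Onecut2 went from 7.77 and 8.63 FPKM to 6.15 and 4.96 FPKM (log2 change -0.49, adjusted p = 0.0666), also without overlap. Foxa1, Foxa2 and Prox1 changed by -0.26, -0.36 and -0.11 on the log2 scale and were not called. The median over all tested features was -0.16, below the Prox1 estimate, and moved to 0.05 under median centring. The sign of a small estimate here thus depends on the scale. Onecut1 lost its call under median centring and quantile normalisation. It was also not called without a filter on low values, with the replicate number in the model, or in a joint model of the 8 libraries. It shares 2171 exonic bases with Gm20649 on the same strand.

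Foxa1, Foxa2 and Onecut1 differed in the CMV arm within the knockdown group. Onecut1 was at 8.73 FPKM in knockdown replicate 1 and 1.54 FPKM in knockdown replicate 2, Foxa2 at 29.5 and 9.77 FPKM and Foxa1 at 8.88 and 4.40 FPKM. The CMV controls lay between these values, at 3.10 and 6.12 FPKM for Onecut1, 16.6 and 13.9 FPKM for Foxa2 and 6.12 and 6.68 FPKM for Foxa1. Knockdown replicate 1 was the high library each time. Foxa3 differed less, with 29.4 and 24.5 FPKM in the knockdown libraries against 22.1 and 35.1 FPKM in the controls, as did Onecut2, with 4.90 and 5.52 FPKM against 4.65 and 6.20 FPKM. Prox1, a factor of lymphatic endothelium and of hepatocytes, was at 16.2 and 21.4 FPKM in the CMV controls and at 9.44 and 15.2 FPKM with shThbs2 (log2 change -0.59, adjusted p = 0.496).

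Nfe2l2, NRF2, the factor that induces antioxidant and glutathione genes, rose in the αSMA arm. It was at 59.7 and 58.4 FPKM in the controls and at 88.0 and 91.1 FPKM with shThbs2, 1.52-fold higher, with small spread within each group (log2 change 0.59 ± 0.14, adjusted p = 0.0313). In the CMV arm it was at 35.5 and 43.5 FPKM in the controls and at 29.2 and 33.6 FPKM with shThbs2 (log2 change -0.32, adjusted p = 0.557). The groups were apart in both arms, in opposite order. NRF2 is controlled largely through the stability of its protein, so its transcript is only one part of its regulation.

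A joint limma model of the 8 libraries gave the αSMA change minus the CMV change. Of the 35 members in both sets, 10 differed between the arms, 5 upward and 5 downward, or 28.6%, beside 25.1% of the 10245 genes tested (7.71% upward and 17.4% downward). Nr1i3 had the largest difference, 2.60 on the log2 scale (95% interval 2.00 to 3.20, adjusted p = 0.00198). Nr2c2 differed by -1.25 (adjusted p = 0.00697) and Cebpb by -1.15 (adjusted p = 0.00832), the first through a fall in the αSMA arm and the second mainly through the higher CMV knockdown values. Nr2f2 differed by 1.20 (adjusted p = 0.0146), Nfe2l2 by 0.91 (adjusted p = 0.0174), Rxrg by 0.91 (adjusted p = 0.0421) and Esr1 by 0.81 (adjusted p = 0.0252). Foxa3, Rxra and Nr3c1 differed by -0.95, -0.78 and -0.70, with adjusted p of 0.0491, 0.0364 and 0.0452. The estimates of the arms had opposite signs for Nr1i3, Nr2c2, Cebpb, Nr2f2, Nfe2l2, Rxrg, Esr1 and Rxra, and the CMV estimate of Nr3c1 was 0.00. Nr1i3, Nr2c2 and Cebpb kept their call in every alternative run that tested them, those that left out 1 library included. Nr2c2 lay below the alternative filter at a mean of 5 FPKM and was not tested with it. Leaving out CMV knockdown replicate 1 reduced the count from 10 to 3, leaving out an αSMA control to 4, and leaving out any of the other 3 CMV libraries or αSMA knockdown replicate 3 to 6. Scaling moved the split as well, to 5 upward and 2 downward under median centring or quantile normalisation, where Rxra, Nr3c1 and Foxa3 were not called, and to 5 upward and 6 downward after the rescaling to nuclear genes. Vector, platform, provider and table processing differ together between the arms.

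The mean of both arms was called for 9 of 35 members, 3 higher and 6 lower, or 25.7%, beside 33.3% of all genes (12.4% higher and 20.9% lower). For Esrra the estimates of both arms were below 0, and the mean log2 change was -0.50 (adjusted p = 0.0166). The same held for Nr4a1 at -0.76 (adjusted p = 0.0385), Rarg at -0.29 (adjusted p = 0.0471) and Foxa3 at -0.53 (adjusted p = 0.0274), although the CMV estimate of Foxa3 was only -0.05. Nr1h3 was above 0 in both arms, with a mean of 0.36 (adjusted p = 0.0366). Nr1i3, Nr2c2 and Cebpb passed because a change in one arm outweighed the opposite sign in the other, and Nr3c1 because of the αSMA arm with a CMV estimate of 0.00. The count was 2 without αSMA control replicate 4, 5 without CMV control replicate 1, 9 without αSMA knockdown replicate 4 and 4 without any of the other 5 libraries. The split was 1 higher and 6 lower after the rescaling to nuclear genes, and 4 higher and 3 lower under median centring or quantile normalisation, where Rarg, Nr4a1 and Nr3c1 were not called. Nr1h3 was not called after the rescaling to nuclear genes or quantile normalisation, and Cebpb after the former. Among the alternatives that kept all libraries and tested the gene, Rarg was called in 1 of 6 and Nr4a1 in 3 of 6. Foxa3 was called in 6 of 7 and Esrra in 7 of 7.

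Because the FPKM sum and the mitochondrial share differed between the αSMA groups, the αSMA arm was also fitted on other scales. With each library rescaled to the same FPKM sum over nuclear genes, 10 members were called, 1 higher and 9 lower, and the median of all features moved from -0.16 to -0.33. With each library centred on its median, 8 were called, 6 higher and 2 lower, with a median of all features of 0.05. Quantile normalisation gave 9 calls, 5 higher and 4 lower, with a median of -0.05. Nr1i3, with log2 changes of 2.06 to 2.46, Nr2c2, with -1.20 to -0.87, and Foxa3, with -1.20 to -0.78, were called on all 4 scales. Nr2c2 reached the mean of 1 FPKM required for testing only through its controls, since its αSMA knockdown libraries were at 0.580 and 0.740 FPKM. Nfe2l2 was 0.39 and not called after the rescaling to nuclear genes and was called on the other scales. Esr1 followed the same pattern, at 0.48. Esrra, Onecut1 and Rxra were called only as deposited and after the rescaling to nuclear genes. Nr3c1 and Nr3c2 lost their call under median centring alone. None of these 10 members changed direction on any scale.

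**Figure D3:**
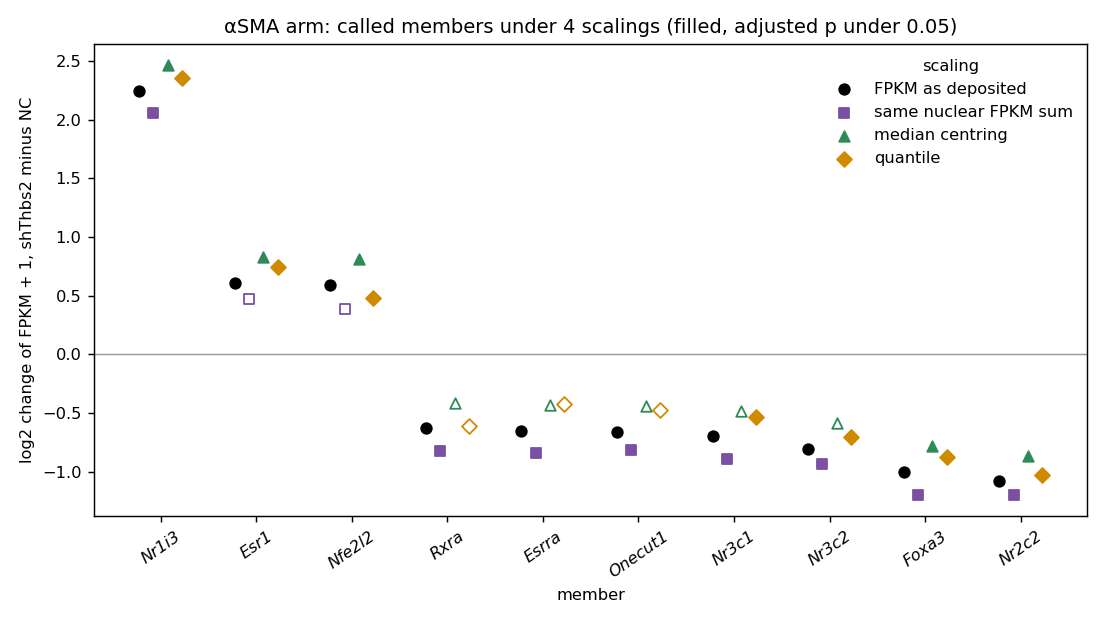
Log2 change of FPKM + 1 (shThbs2 minus NC) in the αSMA arm for the 10 members called on the deposited values, on 4 scales shown by colour and shape; filled symbols passed an adjusted p of 0.05. Nr1i3, Foxa3 and Nr2c2 are filled on all 4 scales, and every symbol of a member lies on the same side of 0.

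Lists of known targets of the members, and of genes that work with them, were read for counts and medians, with no test of a list as a whole. The share called among all αSMA features was 36.1%, and the median log2 change -0.16. Of 19 tested targets of CAR and PXR, 7 rose and 3 fell in the αSMA arm, with a median of 0.38. Cyp2b10, the classical CAR target, was at 25.4 and 23.7 FPKM in the αSMA controls and at 129 and 121 FPKM with shThbs2 (log2 change 2.297, adjusted p = 0.00351), 5.07-fold higher beside the 5.19-fold of Nr1i3. Reads of Cyp2b10 and of other Cyp2b genes are similar, so its level carries that uncertainty. The list changed in both directions, since Cyp3a13, a drug-metabolising enzyme, and Alas1, the first enzyme of haem synthesis, fell by 1.21 and 1.34 on the log2 scale (adjusted p = 0.00917 and 0.0101). None of these targets was called in the CMV arm, and Cyp2b10 was at 93.6 and 180.3 FPKM in the controls and at 137 and 152 FPKM with shThbs2.

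Of 20 targets of HNF4A, 9 rose and 2 fell in the αSMA arm (median 0.65), although Hnf4a itself had an estimate below 0. Cyp7a1, the rate-limiting enzyme of bile acid synthesis, went from 0.0900 and 0.0600 FPKM to 12.3 and 10.6 FPKM (log2 change 3.54, adjusted p = 0.00175). The bile acid and drug uptake carrier Slco1b2 rose by 2.20 and the bile acid conjugating enzyme Baat by 2.45 (adjusted p = 0.00437 and 0.00644). After the rescaling to nuclear genes the list had 7 higher and 5 lower, under quantile normalisation 7 higher and 3 lower, and under median centring 9 higher and 0 lower. Cyp7a1 was at 31.5 and 48.1 FPKM in the CMV controls, and thus near 0 only in the αSMA controls.

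Of 20 targets of NRF2, 3 rose and 9 fell in the αSMA arm (median -0.42), while Nfe2l2 itself rose. Gclc, the catalytic subunit of glutathione synthesis, went from 740 and 695 FPKM to 78.5 and 57.02 FPKM (log2 change -3.40, adjusted p = 0.00293). G6pdx, the entry enzyme of the pentose phosphate pathway, fell by 2.18 (adjusted p = 0.00471). The glutathione transferase Gstm2, a gene with near-identical relatives, rose by 3.02 (adjusted p = 0.00241). Under median centring the list had 3 higher and 4 lower. The CMV level of Gclc was between 67.4 and 72.8 FPKM in all 4 libraries.

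Targets of the glucocorticoid receptor were divided in the αSMA arm, with 2 higher and 4 lower of 14 (median 0.07). The hormone-induced genes Per1 and Fkbp5 fell by 0.94 and 0.91 on the log2 scale (adjusted p = 0.0111 and 0.0159), while G6pc, the last enzyme of glucose production, rose by 3.47 (adjusted p = 0.00253). This list also held, in the CMV arm, the only called gene of the lists, Angptl4, an inhibitor of lipoprotein lipase. It went from 9.70 and 10.8 FPKM to 46.6 and 42.4 FPKM (log2 change 2.01, adjusted p = 0.0278), and it is also a PPAR target.

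Of 7 tested targets of thyroid hormone receptor 3 rose and 0 fell (median 0.89), among them Thrsp, Upp2 and Me1 with log2 changes of 4.64, 5.33 and 0.64 (adjusted p = 0.0175, 0.00413 and 0.0277). The number higher was 5 under median centring, 4 under quantile normalisation and 2 after the rescaling to nuclear genes. Thrsp differed between the knockdown libraries, at 457 and 67.0 FPKM. Of 7 tested targets of RAR 3 rose and 1 fell (median 0.34), or 2 after the rescaling to nuclear genes. Dhrs3, a retinaldehyde reductase, rose by 1.58 and Cyp26a1, which degrades retinoic acid, by 2.25, while Tgm2 fell by 1.27 (adjusted p = 0.00572, 0.0182 and 0.0126). Of 12 targets of LXR 1 rose and 1 fell (median 0.00), Lpcat3 by 1.10 and Arl4c by 0.87 downward (2 and 1 under median centring, 1 and 3 after the rescaling to nuclear genes), with the list's other 10, the member Nr1h3 among them, not called. Of 7 tested targets of PPAR gamma 0 rose and 2 fell (median -0.75), the fatty acid binding protein Fabp4 by 1.29 and the lipid droplet coat Plin2 by 1.54 downward. The number lower was 1 under median centring or quantile normalisation and 3 after the rescaling to nuclear genes.

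Of 20 targets of C/EBP, 4 rose and 5 fell in the αSMA arm (median -0.26), against 4 and 3 under median centring and 3 and 7 on both other scales. The acute phase genes Saa1 and Saa2 went from 739 and 684 FPKM to 78.6 and 76.9 FPKM and from 290.5 and 199.6 FPKM to 32.5 and 31.1 FPKM (adjusted p = 0.00187 and 0.00516). They are near-identical copies, so reads may be shared between them. In the CMV arm 0 of the 20 targets were called, and their median was -0.007 beside 0.03 over all tested features. Saa1 was at 116 and 53.1 FPKM in the CMV controls and at 345 and 572 FPKM with shThbs2. It was not called (log2 change 2.48, adjusted p = 0.158).

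**Figure D4:**
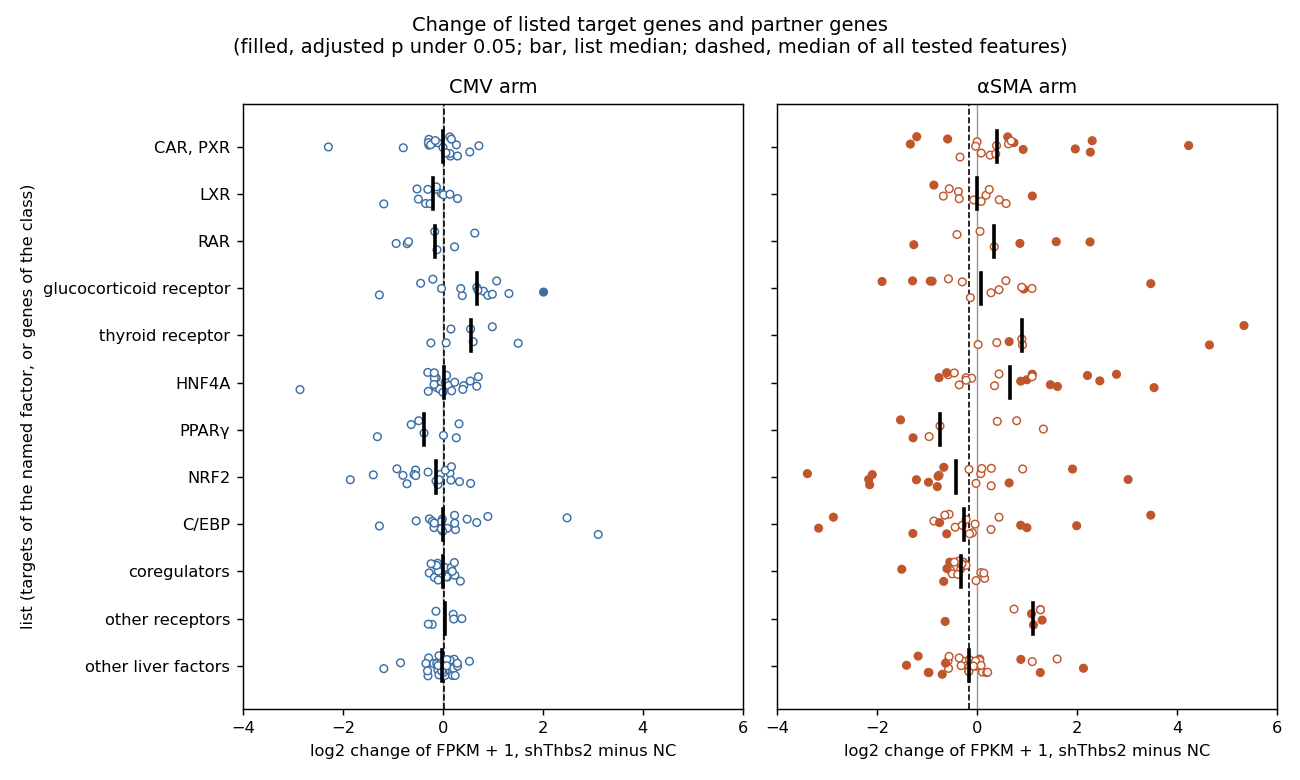
Log2 change of FPKM + 1 (shThbs2 minus NC) of the tested genes of 12 lists in the CMV arm (left) and the αSMA arm (right), with a bar for each list's median and a dashed line for the median of all tested features; filled points passed an adjusted p of 0.05. In the αSMA arm the medians run from -0.75 for targets of PPAR gamma to 1.12 for other nuclear receptors.

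Of 19 tested coactivators and corepressors 0 rose and 4 fell in the αSMA arm (median -0.33). Ppargc1a, PGC-1 alpha, the coactivator of Esrra and Hnf4a that responds to fasting, went from 3.41 and 4.59 FPKM to 0.670 and 0.810 FPKM (log2 change -1.51, adjusted p = 0.00881). The chromatin remodeller Smarca4 and the arginine methyltransferase Carm1 fell by 0.61 and 0.67 (adjusted p = 0.0291 and 0.0344). The number lower was 7 after the rescaling to nuclear genes and 1 under median centring or quantile normalisation. Of 7 tested nuclear receptors outside the members, 4 rose and 1 fell (median 1.12), with the clock repressor Nr1d2 and the lanosterol receptor Nr1h5 up by 1.30 and 1.26 (adjusted p = 0.00811 and 0.0124). The only one lower, named after its value was seen, was Ppara, the fatty acid receptor, from 27.99 and 29.5 FPKM to 19.8 and 16.4 FPKM (adjusted p = 0.0337). It was not called under median centring or quantile normalisation, where 0 of the 7 were lower. Of 31 other hepatocyte transcription factors 3 rose and 6 fell (median -0.16), with Zhx2 and Usf2 down by 1.42 and 1.19 and Klf15 up by 1.26 (adjusted p = 0.00765, 0.00768 and 0.00881). The number lower was 11 after the rescaling to nuclear genes.

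Some markers of the cell types of the liver were called in the αSMA arm, where 13.3% of all tested features were called higher and 22.8% lower. The part of these cell types in the members' results was not tested. Of 10 hepatocyte markers 3 rose and 2 fell, of 13 tested stellate cell and myofibroblast markers 0 rose and 3 fell, and of 14 macrophage markers 1 rose and 4 fell. Of 12 endothelial markers 1 fell, of 6 tested cholangiocyte markers 1 fell, and of 6 tested lymphocyte and neutrophil markers 1 rose. Hepatocyte markers summed to 33121 to 44389 FPKM in the αSMA controls and 36184 to 41215 FPKM with shThbs2, overlapping ranges. Macrophage markers summed to 1142 to 1226 FPKM against 799.9 to 903.5 FPKM, and cholangiocyte markers to 231 to 323 FPKM against 123 to 206 FPKM, both lower with shThbs2. Spp1 is on both of these lists, so the sums are not independent. Lymphocyte and neutrophil markers summed to 92.2 to 139.6 FPKM against 88.4 to 121 FPKM. No marker was called in the CMV arm, beside 0.0183% of all tested features. Hepatocyte markers there summed to 66661 to 66798 FPKM in the controls and at 47206 to 51218 FPKM with shThbs2, and the cholangiocyte markers to 76.1 to 107 FPKM and 51.9 to 59.9 FPKM. No listed marker was at 0 in all 4 libraries of either arm.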

How the data were processed

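Poly(A)-selected RNA of 8 mouse livers was sequenced. The authors deposited FPKM values, in a table for each arm that was normalised on its own. The submitters' processing notes name GRCm38, Bowtie2 2.3.5, HISAT2 2.1.0, Cufflinks and HISAT without a role. Without counts the depth stays unknown, and intervals cover only the spread between libraries. Values under 0.2 FPKM in the αSMA controls take 19 distinct values because of rounding, and whole reads could not be recovered.

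The members and lists were chosen with earlier results of these data known. Among the CMV features, 27 symbols turned into dates were restored through their Ensembl identifiers. In R 4.3.3, limma 3.58.1 (intensity trend, two-sided) was fitted to log2(FPKM + 1) of each arm, over features whose mean in the arm reached 1 FPKM, with Benjamini-Hochberg adjustment over all of them and a threshold of 0.05. This leaves 2 residual degrees of freedom in an arm and 4 in the joint model of all 8 libraries over the 10245 genes tested in both arms. The series text speaks of separate mice, so each library was taken as 1 animal; otherwise the spread behind the p-values may be technical. Members called in an arm, the 5 with the smallest p in the CMV arm, and 3 genes of smallest p in each other list are given in full, except 1 gene that is not reported here. Gene overlaps come from GENCODE M21 and promoters from RefSeq. The scripts were tested on simulated data. Alternatives were the pseudocount, the filter, 3 scalings, the replicate block, the joint model and leaving out each library.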

Additional observations from a re-analysis of the deposited data

Results flagged for a closer look

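The change with shThbs2 differed between the arms for 10 members in the joint limma model, each value being the αSMA change minus the CMV change on the log2 scale. These are 28.6% of the 35 members tested, beside 25.1% of all 10245 genes. The count was 7 under median centring or quantile normalisation and 3 to 10 with 1 library left out, and Foxa3 was called in 3 of 15 alternatives. The difference was above 0 for Nr1i3 at 2.60, Nr2f2 at 1.20, Nfe2l2 at 0.91, Rxrg at 0.91 and Esr1 at 0.81. It was below 0 for Nr2c2 at -1.25, Cebpb at -1.15, Foxa3 at -0.95, Rxra at -0.78 and Nr3c1 at -0.70. Vector, platform, provider and table differ together between the arms and cannot be told apart.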

How the results depend on the processing

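In all, 34 results were recomputed 453 times. Among the results were those of 5 CMV members that were not called with all libraries. Of the 453 values 290 kept their direction and their side of the threshold, which for these 5 members meant staying uncalled. Another 161, all from called results, were no longer past it, 2 were newly past it, and 0 reversed. Many of the 453 values could not reverse. The filter, the replicate block and the joint model leave an estimate as it is. Within an arm, leaving out a library cannot turn groups that do not overlap. The count of called members in the αSMA arm, 10 on the deposited values, was 4 without a filter on low values and 5 with the replicate block. It lay between 7 and 12 under the other settings that kept all libraries. The cause was not tested. With the replicate block Nr3c2, Nr3c1, Nr2c2, Nr1i3 and Foxa3 were called. Libraries of the same number did not deviate together (correlation 0.04 in the CMV arm and 0.0013 in the αSMA arm), so the numbers are not taken to pair the libraries. Leaving out 1 library at a time gave 0 to 7 called members in the αSMA arm, 0 to 1 in the CMV arm, 3 to 10 for the difference between arms and 2 to 9 for the mean of both arms. Such fits keep 1 library in a group, which is assumed to vary like the others, and fewer residual degrees of freedom. The counts over lists under the scalings were chosen after seeing the data. With 2 libraries a group, unknown depth and values rounded to 2 decimals in the αSMA table, members near 1 FPKM are the least precise.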
